A study of Homo sapiens with 3 samples.

Results

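The genes described here encode the core machinery of RNA interference and of microRNA processing. They are the 10 genes AGO1, AGO2, AGO3, AGO4, DICER1, DROSHA, DGCR8, TNRC6A, TNRC6B and TNRC6C, found by gene name among 22773 genes listed in all 3 deposited tables. All 10 were listed in each table and all 10 passed the filter of a mean of at least 1 CPM (reads of a gene scaled to a common library total), which left 14185 genes. RNA sequencing had been done on DU145, an androgen-independent human prostate cancer cell line, 48 h after transfection with 75 nM siRNA. A negative control siRNA gave 1 library, and siRNA 1 and siRNA 2 against TSPAN18, a tetraspanin membrane protein, gave 1 library each. All 3 cultures therefore received an siRNA, and no untransfected culture was analysed here. Each siRNA had 1 library, the labels do not say whether the libraries came from separate cultures, and no source used here gives the sequences of the siRNAs.

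MicroRNAs begin as hairpins in longer transcripts. The Microprocessor, made of the nuclease DROSHA and the double-stranded RNA-binding protein DGCR8, cuts these hairpins out in the nucleus, and DICER1 trims them to short duplexes in the cytoplasm. A strand of the duplex, or of a transfected siRNA, is loaded into an Argonaute protein (AGO1 to AGO4), which pairs with target messages. TNRC6 proteins (TNRC6A to TNRC6C, also called GW182 proteins) bind Argonaute and bring in the enzymes that shorten the poly(A) tail of the target. AGO2 is the Argonaute known to cut a perfectly matched target, the reaction used by an experimental siRNA.

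The depth was 30058731, 29913825 and 29766559 read pairs in the control, siRNA 1 and siRNA 2 libraries. TSPAN18 itself stood at 16.9 CPM in the control library and at 1.37 and 1.51 CPM in the siRNA 1 and siRNA 2 libraries, so the target was low in the libraries labelled for it. Of 5 epithelial and line markers (KRT8, KRT18, EPCAM, CDH1 and VIM) all were listed, with a summed level of 994 to 1154 CPM. Fibroblast markers (3 of 5 listed) summed to 4.11 to 7.82 CPM, endothelial markers (3 of 3) to 0.366 to 1.38 CPM, and 0 of 3 haematopoietic markers were listed in all 3 tables. The part of such markers in the results was not tested. Intervals below are exact 95% intervals that cover counting error only. They are narrow at this depth and say nothing on variation between cultures.

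With siRNA 2 the TNRC6 family and DROSHA stood farthest from the control among the core genes, and with siRNA 1 TNRC6C, AGO1 and TNRC6A did. The place of TNRC6A depended on the processing. On the log2(CPM + 1) scale with the GC trend removed, DICER1 (−0.49) was farther with siRNA 2 than TNRC6A (−0.38). With median-of-ratios scaling AGO4 (0.29) was farther with siRNA 1 than TNRC6A (−0.26). All 3 TNRC6 genes were lower with both siRNAs, TNRC6C at 68.4% and 47.8% of the control and TNRC6B at 92.2% and 58.6%. DROSHA was at 92.0% of the control with siRNA 1 and at 146% with siRNA 2. No core gene was 1.5-fold from the control on the log2(CPM + 1) scale with siRNA 1, where 4.43% of all genes were that much higher and 15.1% that much lower. With siRNA 2, 2 core genes (TNRC6B and TNRC6C) were at least 1.5-fold lower, against 6.61% of all genes, and 0 were higher, against 6.34%. The median log2 ratio of the core genes was −0.11 with siRNA 1, beside −0.10 over all genes, and −0.16 with siRNA 2, beside 0.01. Both ratios share the 1 control library. By counting error alone, 5 core genes lay below and 2 above the control with siRNA 1, against 42.7% and 26.9% of all genes, and 7 lay below and 1 above with siRNA 2, against 31.6% and 33.3%. Such calls, here and below, depend on the number of reads, so the shares of all genes are not a like background. By control CPM the core genes ranged from percentile 48.1 (TNRC6C) to 95.4 (AGO2) of the genes kept. Lower than the control with both siRNAs were 5 core genes (AGO1, DICER1 and the TNRC6 genes), against 37.7% of all genes, and higher with both was AGO4, against 29.3%. A smaller threshold, 25% above or 20% below the control, was also applied on the log2(CPM + 1) scale. By it 3 core genes (AGO1, TNRC6A and TNRC6C) were lower with siRNA 1, where 30.3% of all genes were. With siRNA 2 the 3 TNRC6 genes were lower, where 17.8% of all genes were, and DROSHA was higher, where 18.5% were. DICER1, at 79.9% of the control with siRNA 2 by CPM, was just short of the smaller threshold on the log2(CPM + 1) scale.

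**Figure D1:**
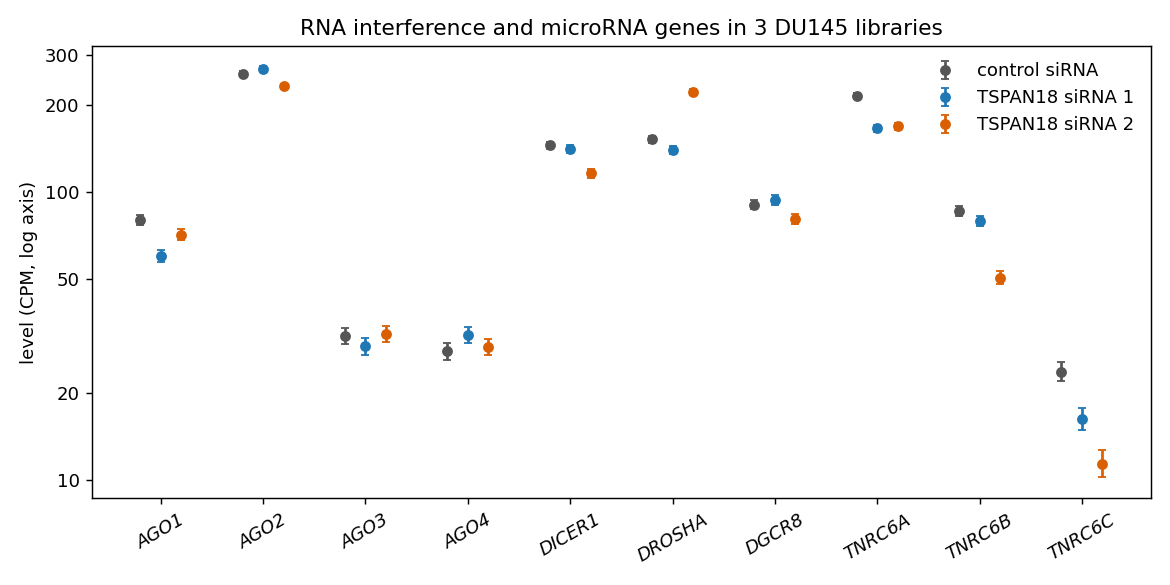
Level of each core gene in CPM (log axis) in the control siRNA, TSPAN18 siRNA 1 and TSPAN18 siRNA 2 libraries, 1 library each. Bars are exact 95% Poisson intervals (counting error only). DROSHA is highest with siRNA 2 (222 CPM), and TNRC6B and TNRC6C are lowest with siRNA 2 (50.4 and 11.4 CPM).

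Levels of different genes can be compared only per length, here as CPM per kilobase of all annotated exonic bases. In the control library DROSHA stood first at 19.6 CPM per kilobase, above 82.4% of all genes kept. TNRC6A at 16.7 and AGO2 at 16.3 CPM per kilobase followed, and their counting intervals overlapped. DGCR8 at 12.3 and DICER1 at 11.8 came next, again with overlapping intervals. AGO1 was at 5.76, TNRC6B at 4.300, AGO4 at 3.85, TNRC6C at 2.14 and AGO3 at 1.49 CPM per kilobase, each outside the interval of its neighbour. By this measure TNRC6A was the leading TNRC6 message, with 72.1% of the per-length sum of its family, and AGO2 the leading Argonaute message, with 59.5%. When the length of the longest transcript was used instead, DGCR8 passed AGO2 (19.2 against 17.7 CPM per kilobase). The order differed in part in the siRNA libraries. AGO2 stood above TNRC6A with siRNA 1 (16.9 against 12.9) and siRNA 2 (14.7 against 13.1), with intervals apart. By the longest transcript TNRC6A stayed above AGO2 in both. AGO4 stood above TNRC6B with siRNA 1 (4.38 against 3.96, overlapping intervals) and siRNA 2 (3.98 against 2.52). In the siRNA 1 library AGO4 also stood above AGO1 (4.31) with overlapping intervals. In the siRNA 2 library TNRC6C (1.02 CPM per kilobase) stood below AGO3 (1.52).

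In the Microprocessor the messages of the nuclease and its partner stood on opposite sides of the control with siRNA 2. DROSHA (ENSG00000113360) gave 152 CPM in the control library, 140.1 CPM in the siRNA 1 library and 222 CPM in the siRNA 2 library, from 4577, 4190 and 6615 read pairs. The siRNA 2 library alone stood above the control. DGCR8 (ENSG00000128191) was at 90.3, 93.7 and 80.8 CPM in the same order, with siRNA 2 the lowest. Relative to the control, DROSHA was at 92.0% (88.2 to 95.9) with siRNA 1 and 146% (141 to 152) with siRNA 2. DGCR8 was at 104% (98.4 to 109) and 89.4% (84.6 to 94.5).

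The ratio of DROSHA to DGCR8 read pairs, which is not corrected for length and serves only to compare libraries, was 1.69 (1.61 to 1.77) in the control, 1.49 (1.42 to 1.57) with siRNA 1 and 2.75 (2.63 to 2.88) with siRNA 2. This ratio uses no scaling between libraries. On the log2(CPM + 1) scale DROSHA differed from the control by −0.12 and 0.54, and 1074 of 14185 genes (7.57%) were at least as far above the control as DROSHA with siRNA 2. DGCR8 shares 9.58% of its exonic bases with other annotated genes, among them TRMT2A on the opposite strand, and as the strand setting of the counting is not given, part of its reads cannot be told apart from theirs. TRMT2A was at 68.9, 54.3 and 60.2 CPM. DROSHA shares none.

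DICER1 (ENSG00000100697), the cytoplasmic nuclease, had levels of 145, 141 and 116 CPM in the control, siRNA 1 and siRNA 2 libraries. The interval of the siRNA 1 library held 100% of the control, at 97.1% (93.0 to 101), and the siRNA 2 library was lower at 79.9% (76.4 to 83.6). The antisense transcript DICER1-AS1 shares 0.651% of the exonic bases of DICER1 and was at 38, 33 and 45 read pairs. With siRNA 2 the messages of the nuclear and of the cytoplasmic nuclease therefore stood on opposite sides of the control: there were 1.92 (1.84 to 2.00) DROSHA read pairs per DICER1 read pair, against 1.05 (1.01 to 1.09) in the control and 0.994 (0.952 to 1.04) with siRNA 1.

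Of the Argonautes, AGO1 was the farthest from the control with each siRNA, although with siRNA 2 its interval overlapped that of AGO2. AGO2 (ENSG00000123908) gave 258 CPM in the control and 267 and 233 CPM in the siRNA 1 and siRNA 2 libraries, which is 104% (100.3 to 107) and 90.2% (87.3 to 93.2) of the control. The siRNA 2 library was the lowest. AGO1 (ENSG00000092847) was at 80.04, 59.8 and 71.1 CPM, and the lowest value was that with siRNA 1. It stood at 74.8% (70.3 to 79.5) of the control with siRNA 1 and 88.8% (83.7 to 94.2) with siRNA 2.

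AGO3 and AGO4 had the lowest levels per kilobase of the family in the control. AGO3 (ENSG00000126070) was at 31.5, 29.1 and 32.2 CPM, and its intervals of 84.2 to 101% and 93.2 to 112% of the control held 100% with both siRNAs. AGO4 (ENSG00000134698) was at 28.0, 31.8 and 28.9 CPM, or 114% (104 to 125) and 103% (93.9 to 114) of the control. AGO4, AGO1 and AGO3 lie next to each other in this order on chromosome 1, on the same strand, yet AGO1 was the lowest of them relative to the control in each siRNA library while AGO4 was the highest.

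Summed over the family, Argonaute messages came to 398, 388 and 365 CPM. The sum was 97.6% (95.1 to 100.1) of the control with siRNA 1 and 91.8% (89.4 to 94.2) with siRNA 2. The share of AGO1 in the Argonaute read pairs was 20.1% (19.4 to 20.9) in the control, 15.4% (14.8 to 16.1) with siRNA 1 and 19.5% (18.7 to 20.2) with siRNA 2. Only the siRNA 1 library stood outside the interval of the control. The share of AGO2 was 64.9%, 68.9% and 63.8%.

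The TNRC6 messages were lower than the control in all 6 comparisons, which share the 1 control library. Of all genes, 37.7% were lower with both siRNAs, and with siRNA 1 48.2% were at least as far below the control as TNRC6B. TNRC6A (ENSG00000090905) had 215 CPM in the control library against 166 and 169 CPM in the siRNA 1 and siRNA 2 libraries, from 6470, 4977 and 5034 read pairs. The siRNA libraries lay close together, at 77.3% (74.5 to 80.2) and 78.6% (75.7 to 81.5) of the control.

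TNRC6B (ENSG00000100354) was at 86.0, 79.3 and 50.4 CPM, from 2585, 2371 and 1501 read pairs. Its value was low with siRNA 2 in particular, at 58.6% (55.0 to 62.5) of the control, against 92.2% (87.1 to 97.5) with siRNA 1. TNRC6C (ENSG00000078687) was at 23.8, 16.2 and 11.4 CPM, from 714, 486 and 338 read pairs. It was the lowest of the core genes relative to the control with each siRNA, at 68.4% (60.8 to 76.9) and 47.8% (41.9 to 54.5).

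On the log2(CPM + 1) scale TNRC6C differed from the control by −0.52 and −1.003, TNRC6B by −0.12 and −0.76, and TNRC6A by −0.37 and −0.35. TNRC6C was the only core gene at least 2-fold lower with siRNA 2, where 1.16% of all genes were, and its log2 ratio was −0.96 with the GC trend removed and −0.81 with a pseudocount of 5, both short of 2-fold. With siRNA 2, 162 of 14185 genes (1.14%) were at least as far below the control as TNRC6C, and 459 (3.24%) as TNRC6B. All 6 ratios kept their sign with median-of-ratios scaling and with the trend on GC content removed, although that of TNRC6B with siRNA 1 was then −0.0029 and −0.09. TNRC6C shares 12.9% of its exonic bases with TNRC6C-AS1 on the opposite strand, which was at 10, 2 and 4 read pairs in the control, siRNA 1 and siRNA 2 libraries. TNRC6A and TNRC6B share none, and AGO1, AGO2 and AGO3 share 2.85%, 0.297% and 0.406% with transcripts known only by clone names.

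Together the TNRC6 messages came to 325, 262 and 231 CPM, which is 80.6% (78.2 to 83.0) of the control with siRNA 1 and 71.0% (68.9 to 73.3) with siRNA 2. Within the family, TNRC6A took 66.2% (65.3 to 67.2) of the read pairs in the control, 63.5% (62.5 to 64.6) with siRNA 1 and 73.2% (72.2 to 74.3) with siRNA 2. TNRC6C took 7.31%, 6.20% and 4.92%, the lowest share being with siRNA 2.

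**Figure D2:**
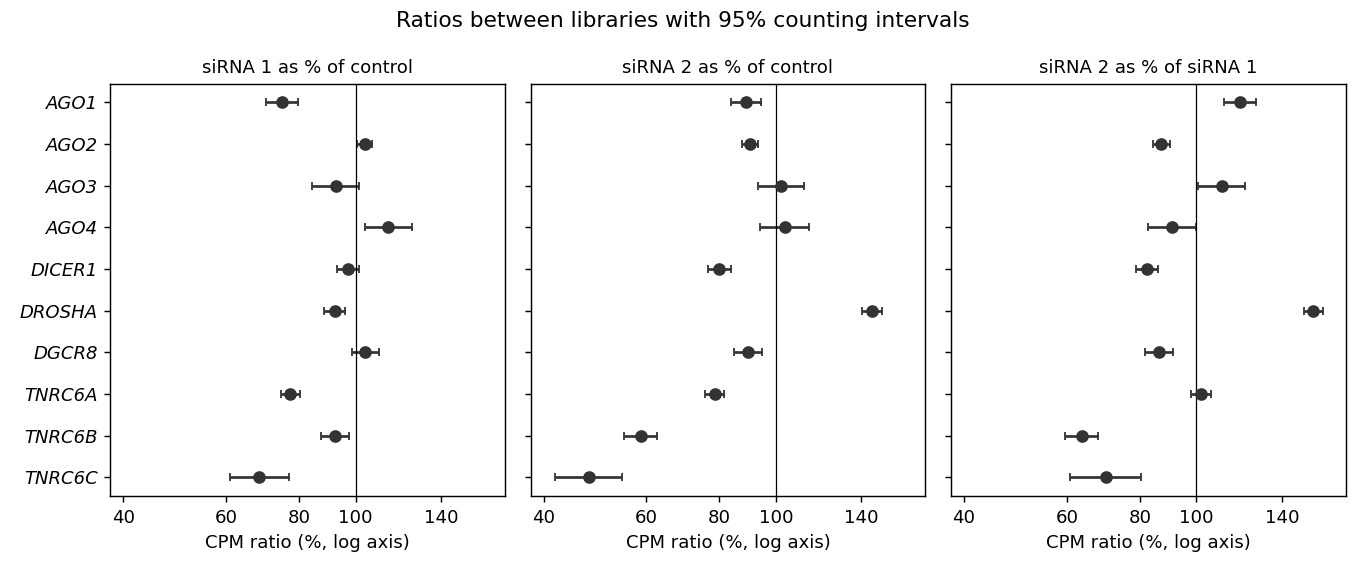
CPM of each core gene in one library as a percentage of another (log axis), with exact 95% intervals for counting error, for siRNA 1 to control, siRNA 2 to control and siRNA 2 to siRNA 1. The 3 TNRC6 genes lie left of 100% against the control in both panels, and DROSHA lies at 146% and 159% in the panels with siRNA 2 as numerator.

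The only test this design allows sets the mean of both siRNA libraries against the lone control, with a spread taken from the difference between the siRNAs and pooled over genes. By limma none of the 10 core genes passed, with adjusted p-values between 0.992 and 0.997 over 14185 genes, of which 0 (0%) passed and 691 (4.87%) had an unadjusted p under 0.05. The smallest unadjusted p among the core genes was 0.0558, for TNRC6C, with a mean log2 ratio of −0.76 ± 0.34 (SD, n = 2 siRNAs, lower in 2 of 2; limma). TNRC6A had the closest pair of ratios, −0.36 ± 0.017 (SD, n = 2 siRNAs), and TNRC6B and DROSHA the widest, −0.44 ± 0.45 and 0.21 ± 0.47. The quasi-likelihood test of edgeR and DESeq2 on recovered read pairs also called 0 of the 10, and 0 had an unadjusted p under 0.05 in either. A p above the threshold in this design does not show that the levels were alike. The target TSPAN18, at 8.09% and 8.93% of the control with siRNA 1 and siRNA 2, did not pass by limma or edgeR either, but did by DESeq2.

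**Figure D3:**
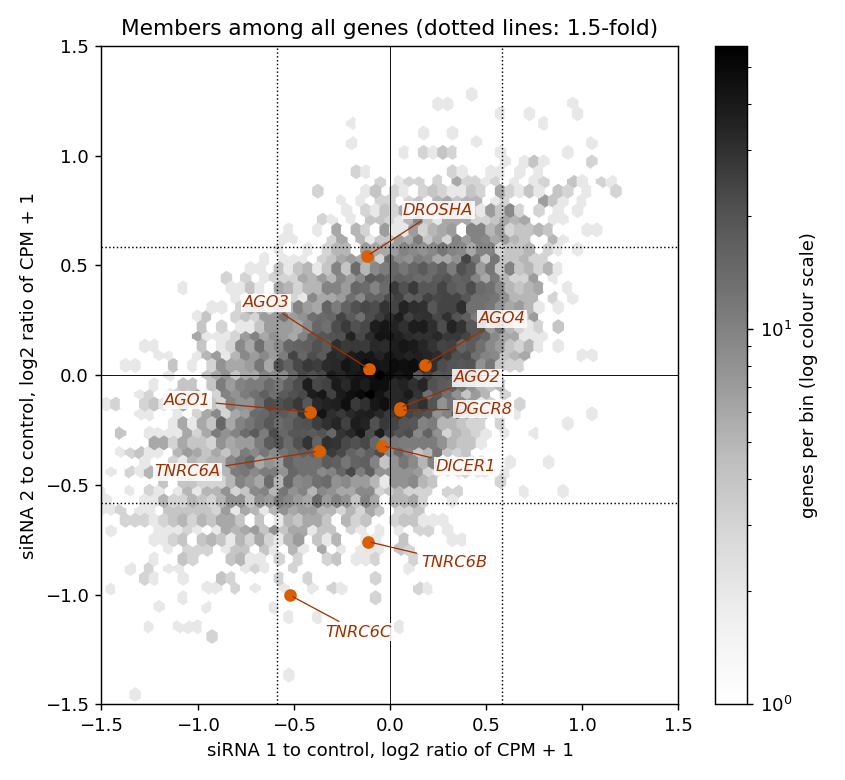
Log2 ratio of CPM + 1 to the control with siRNA 1 (x axis) and siRNA 2 (y axis) for the core genes (labelled points) over all genes kept (grey bins, darker for more genes; 145 genes lie outside the plotted range of ±1.5). Dotted lines mark 1.5-fold; TNRC6B and TNRC6C lie below the lower line for siRNA 2 and no core gene passes the lines for siRNA 1. The axes share the control library.

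A comparison of siRNA 2 with siRNA 1 leaves the control out. DROSHA was at 159% (153 to 165) of its siRNA 1 level and TNRC6B at 63.6% (59.6 to 67.9), the only core genes at least 1.5-fold apart. Over all genes 13.0% were that much higher and 3.74% that much lower with siRNA 2. TNRC6C was at 69.9% (60.7 to 80.5), DICER1 at 82.3% (78.7 to 86.1), DGCR8 at 86.2% (81.6 to 91.0) and AGO2 at 87.1% (84.3 to 89.96). AGO1 stood on the other side, at 119% (111 to 127), while TNRC6A was at 102% (97.7 to 106). The median log2 ratio was −0.17 for the core genes and 0.11 for all genes. With median-of-ratios scaling it was −0.29 for the core genes and −0.0017 for all genes. By counting error, 3 core genes lay above and 6 below their siRNA 1 level, against 44.0% and 24.0% of all genes. A single library of each siRNA allows no test of this ratio.

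An siRNA can also lower messages whose 3′ UTR matches its seed, bases 2 to 8 of the guide strand, in the manner of a microRNA, and such pairing is known to act through the proteins described here. Since the siRNA sequences are not given, heptamers that go with low values in each library were sought in the 3′ UTRs of 12188 other genes, without the core genes. The 15735 heptamers present in at least 100 of these genes were ranked by the difference between genes with and without them in 1 library relative to the other libraries, after UTR length and GC content had been fitted out. Only the sense strand was searched. TTCACCA and TCACCAA ranked first and second for siRNA 1 (mean log2 difference −0.17 and −0.20, in the order given), and TGGGTCA and GGGTCAA for siRNA 2 (−0.16 and −0.17). For the control library TCGGAGA and CGGAGAA ranked first and second (−0.22 and −0.20), in 1.89% and 2.17% of the 3′ UTRs. Each pair overlaps by 6 bases, and overlapping matches were counted as 1 site. TTCACCA was present in 16.1% and TCACCAA in 9.74% of the 3′ UTRs, TGGGTCA in 10.2% and GGGTCAA in 5.30%. Whether these are the seed matches of the siRNAs was not tested.

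Core genes have long 3′ UTRs: 9 of the 10 were longer than the median of 1137 bases and 6 were longer than 4205 bases, the 90th percentile. TNRC6B (12567 bases) held 3 siRNA 1 sites and 2 siRNA 2 sites. TNRC6C (3990 bases) held 1 siRNA 1 site and 2 siRNA 2 sites. AGO1 (10921 bases) held 3 siRNA 1 sites and 1 siRNA 2 site, AGO3 held 1 siRNA 1 site, and DICER1 and AGO2 held 1 siRNA 2 site each. AGO4, DROSHA (935 bases), DGCR8 and TNRC6A held none of either kind. TNRC6C was also the only core gene with a match to a heptamer of the control library (CGGAGAA, in 2.17% of the 3′ UTRs). How common these counts were among genes with a 3′ UTR of like length is given below.

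The sites of the genes that were lowest with siRNA 2 are shown because they are the core genes with more than 1 site for that library. They are given 5′ to 3′ on the plus strand, from GENCODE 29 transcripts, with the heptamer match in capitals and its GRCh38 position, as hg19 is the build in the submitters' processing notes.
TNRC6C, 3′ UTR base 180, chr17:78105025-78105031: cgggctgcggTGGGTCAgcgtcacatg
TNRC6C, 3′ UTR base 3357, chr17:78108202-78108209: ccgcccactgTGGGTCAAttccttcgaa
TNRC6B, 3′ UTR base 136, chr22:40323377-40323383: gaaaaaaaggTGGGTCAttgacagact
TNRC6B, 3′ UTR base 1670, chr22:40324911-40324917: ggccgaacagGGGTCAAcgtttaatct
The second TNRC6C site holds both heptamers in a run of 8 bases.

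Among 1245 genes with a 3′ UTR between 20% shorter and 25% longer than that of TNRC6C, 4.98% had as many siRNA 2 sites. For TNRC6B the share was 23.6% of 89 genes, so its number of sites is common at that length. With the same length limits, 60% of 145 genes had as many siRNA 2 sites as AGO1, and 65.4% of 104 as AGO2. For siRNA 1 sites the share was 96.9% of 32 genes for AGO3, 41.6% of 89 for TNRC6B and 49.3% of 1245 for TNRC6C. These counts are therefore also common at their lengths. For the control library site of TNRC6C the share was 6.59%. Genes other than the core genes with no siRNA 2 site had a median log2 ratio of siRNA 2 to siRNA 1 of 0.13, those with 1 site −0.02 and those with 2 or more −0.06. TNRC6B at −0.64 and TNRC6C at −0.48 lay below these medians. Of the core genes with 1 siRNA 2 site, DICER1 (−0.28) and AGO2 (−0.20) lay below the median for 1 site and AGO1 (0.24) above it. Of those with none, DGCR8 (−0.21), AGO4 (−0.13) and TNRC6A (0.02) lay below the median for no site. DROSHA (0.66) and AGO3 (0.14) lay above it. Genes with more sites also have longer 3′ UTRs, and at like length the medians for 0, 1 and 2 or more siRNA 2 sites were 0.12, −0.0069 and 0.08 around TNRC6B and 0.10, −0.03 and −0.16 around TNRC6C. These ratios also chose the heptamers and are given as a description.

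AGO1, the lowest Argonaute with siRNA 1, held 3 matches to the first siRNA 1 heptamer, and 32.4% of 145 genes of like UTR length had as many siRNA 1 sites. They are shown here in the same form (plus strand, GRCh38).
AGO1, 3′ UTR base 2462, chr1:35922069-35922075: ggtccagtcaTTCACCAgcatttgcaa
AGO1, 3′ UTR base 5736, chr1:35925343-35925349: gactttcaagTTCACCAcaactaccac
AGO1, 3′ UTR base 7299, chr1:35926906-35926912: ctgtagcatcTTCACCAccatcctctt
TNRC6B also held 3 siRNA 1 sites and stood at 92.2% of the control with siRNA 1. The siRNA 1 site of TNRC6C holds both siRNA 1 heptamers.
TNRC6C, 3′ UTR base 3089, chr17:78107934-78107941: ttcgctaactTTCACCAAgcactttgag
Of 1123 genes with a 3′ UTR of like length to that of DICER1, 28.6% had an siRNA 2 site. AGO1 and AGO2, at 88.8% and 90.2% of the control with siRNA 2, also held 1, and TNRC6A, at 78.6%, held none. The siRNA 2 site of DICER1, on the minus strand of chromosome 14, is shown for its lower level with siRNA 2.
DICER1, 3′ UTR base 1493, chr14:95088999-95089005: ttaaaagctgTGGGTCAgtcttgcact
At like length, median log2 ratios of siRNA 2 to siRNA 1 were also taken for 0, 1 and 2 or more siRNA 1 sites. They were 0.08, 0.05 and 0.07 around AGO1, and 0.17, 0.14 and −0.0069 around TNRC6B. Around TNRC6C they were −0.02, 0.11 and 0.21. A site is a match of letters, and its part in any of these levels was not tested.

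**Figure D4:**
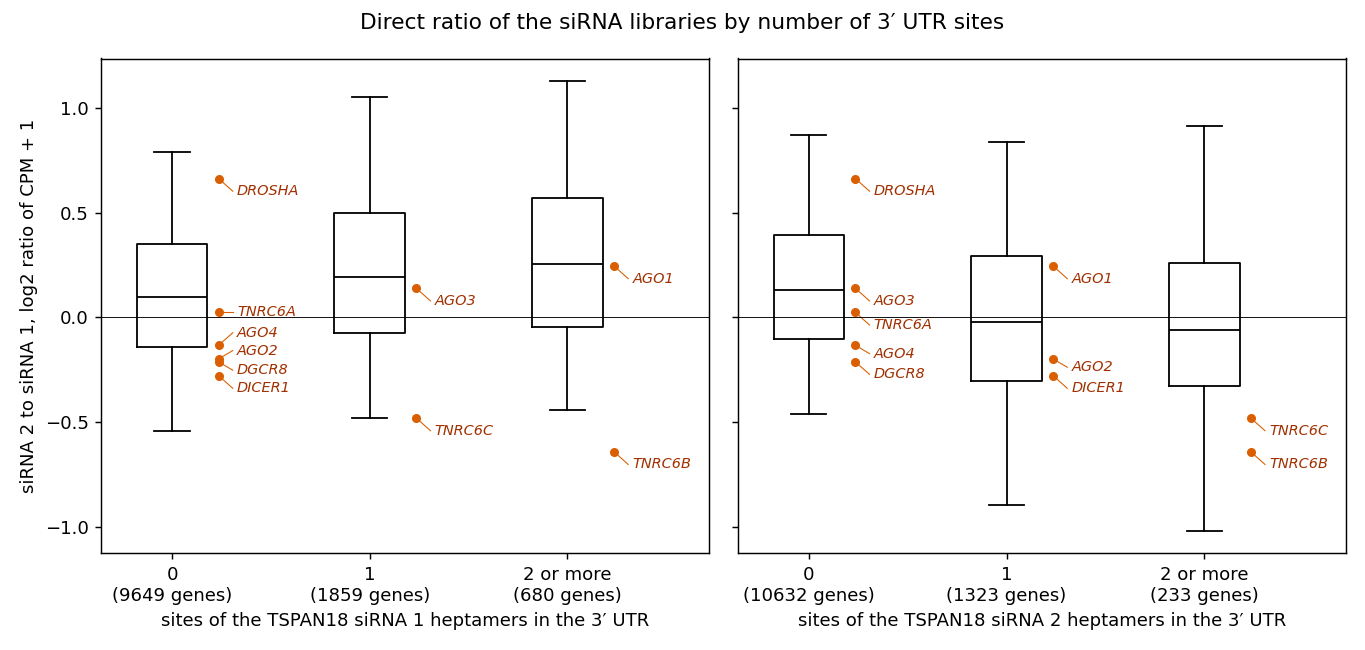
Log2 ratio of CPM + 1 of siRNA 2 to siRNA 1 by the number of siRNA 1 sites (left) and siRNA 2 sites (right) in the 3′ UTR. Boxes give the median and quartiles and whiskers the 5th and 95th percentiles of all genes other than the core genes, which are the labelled points. TNRC6B and TNRC6C, with 2 siRNA 2 sites each, lie at −0.64 and −0.48. DICER1, AGO2 and AGO1, with 1 each, lie at −0.28, −0.20 and 0.24.

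Partners of the core machinery were described from lists that were chosen with earlier results of these data known. By limma 0 of their 99 genes kept passed and 2 had an unadjusted p under 0.05, and edgeR and DESeq2 gave the same counts. Beside the counts below, 29.3% of all genes lay above the control with both siRNAs and 37.7% below it, and the medians of all genes were −0.10 and 0.01. At 1.5-fold the shares of all genes were 4.43% higher and 15.1% lower with siRNA 1, and 6.34% and 6.61% with siRNA 2. Of 16 nuclear partners and export factors, 4 were higher and 3 lower than the control with both siRNAs, and 0 were 1.5-fold away with either. Their median log2 ratios were 0.10 and −0.06. XPO5, which exports microRNA precursors from the nucleus, was at 203, 186 and 165 CPM in the control, siRNA 1 and siRNA 2 libraries. ADARB1, an RNA-editing enzyme, was at 26.4, 22.8 and 21.5 CPM, and SAFB, a nuclear RNA-binding protein, at 198, 275 and 197 CPM.

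Of 18 Dicer partners and factors that load Argonaute, 10 were higher and 5 lower with both siRNAs, with medians of 0.16 and 0.05. At least 1.5-fold higher were 3 with siRNA 1 and 1 with siRNA 2, and 0 were that much lower. TSNAX, a subunit of the nuclease that removes the passenger strand of an siRNA duplex, was at 29.3, 46.5 and 48.9 CPM and was the only one of the list at least 1.5-fold higher with both, as 1.96% of all genes were. Its log2 ratios were 0.43 and 0.46 with the GC trend removed, both short of 1.5-fold. The HSP90 co-chaperone PTGES3 was at 446, 597 and 640.1 CPM, and the co-chaperone FKBP5 at 132, 224 and 173 CPM.

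Of 17 deadenylation genes, the factors that TNRC6 proteins recruit, 6 were higher and 5 lower with both siRNAs (medians 0.09 and 0.08). At 1.5-fold, 1 was higher and 2 lower with siRNA 1, and 0 were past it with siRNA 2. The subunits of the PAN2-PAN3 deadenylase stood on opposite sides of the control: PAN2 was at 30.4, 16.0 and 25.9 CPM and PAN3 at 33.2, 54.0 and 39.3 CPM. CNOT6, a catalytic subunit of the CCR4-NOT complex, was at 75.8, 61.4 and 61.0 CPM. Of 21 genes of translational repression, decapping and decay, 10 were higher and 5 lower with both siRNAs (medians 0.09 and 0.03). At 1.5-fold, 3 were higher and 2 lower with siRNA 1, and 2 higher and 1 lower with siRNA 2. DCP2, the decapping enzyme, was at 39.9, 86.2 and 75.1 CPM and was 1.5-fold higher with both. FXR1, a relative of the fragile X protein, was at 168, 289 and 232 CPM, and LSM14B was at 61.8, 58.0 and 25.4 CPM.

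Of 16 genes of microRNA tailing, turnover and Argonaute modification, 14 were listed and 13 kept, with 6 higher and 2 lower with both siRNAs (medians 0.02 and 0.12). Past 1.5-fold was 1 gene, higher with siRNA 1. ZSWIM8, part of a ubiquitin ligase that degrades Argonaute on certain targets, was at 75.4, 57.7 and 54.3 CPM, and its partner ELOB at 73.0, 53.1 and 57.7 CPM. With the GC trend removed, their log2 ratios were −0.04 and −0.11 with siRNA 1, and −0.32 and −0.18 with siRNA 2. CUL3 and ELOC of the same list stood above the control with both siRNAs, at 78.7, 103 and 85.5 CPM and at 70.7, 71.5 and 76.8 CPM. ANKRD52, a regulatory subunit of the phosphatase that acts on AGO2, was at 428, 742 and 440.1 CPM, high with siRNA 1 alone. Of the PIWI genes, relatives of the Argonautes known from the germ line, 2 of 4 were listed in all 3 tables and both were under the filter: PIWIL2 at 0.532, 0.669 and 0.537 CPM and PIWIL4 at 0.898, 0.501 and 1.08 CPM. Of 24 long transcripts that host microRNAs, 17 were listed and 14 kept, with 5 higher and 5 lower with both siRNAs (medians 0.09 and −0.0018). At 1.5-fold, 1 was higher and 2 lower with siRNA 1, and 2 higher and 1 lower with siRNA 2. DLEU2, host of miR-15a and miR-16-1, was at 2.33, 5.21 and 4.06 CPM, MIR503HG at 7.35, 11.0 and 13.7 CPM, and MIR210HG at 1.53, 0.468 and 1.85 CPM. The mature microRNAs themselves were not measured in these libraries.

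**Figure D5:**
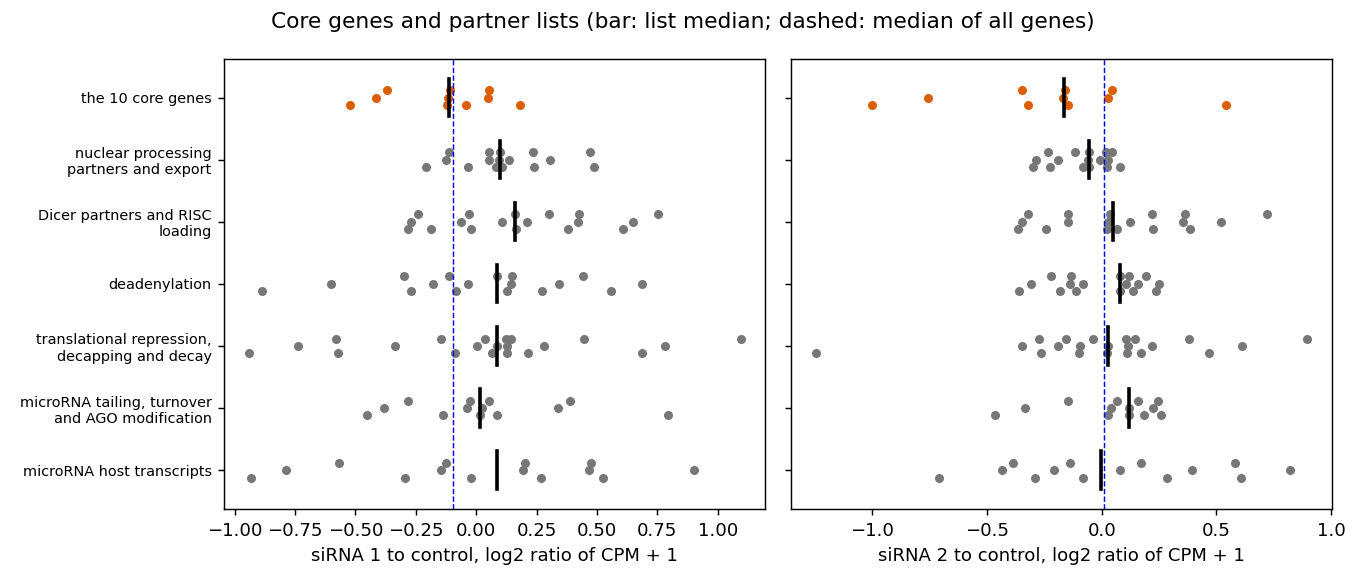
Log2 ratio of CPM + 1 to the control with siRNA 1 (left) and siRNA 2 (right) for the 10 core genes (orange) and 6 lists of partner genes (grey), 1 point per gene. Bars are list medians and the dashed line is the median of all genes. The core genes have the lowest median of the lists in both panels (−0.11 and −0.16).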

How the data were processed

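Libraries were grouped as control (1) and siTSPAN18 (2, different siRNAs). The submitters' processing notes name HISAT2 2.1.0 and HTSeq 0.6.1, with bcl2fastq 2.19.1 and the build hg19; annotation release and strand setting are not given in the sources used for this work. The authors deposited 1 CPM value per gene. In each library 100% of values were whole reads within 0.001 read, and read pairs were recovered from them (each pair counted as 2 reads, a value of 1 read taken as 0 pairs). A pair is worth 0.0333 to 0.0336 CPM and a count of 0 allows up to 3 pairs, or 0.0998 to 0.101 CPM.

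Ratios were taken as log2(CPM + 1), which understates changes of low genes, and percentages from CPM. Counting intervals (95%, Clopper-Pearson or Poisson) treat read pairs as independent, which PCR copies are not. The test was limma 3.58.1 (R 4.3.3) on log2(CPM + 1), 2 libraries against 1 with 1 residual degree of freedom and 6.27 prior ones, adjusted by Benjamini-Hochberg over 14185 genes at 0.05; it assumes that the lone control varies like the siRNA libraries. Alternatives were edgeR 4.0.16 and DESeq2 1.42.0 on recovered pairs, other pseudocounts, filters and thresholds, median-of-ratios scaling, and removal of the GC trend (lowess, fraction 0.3). The fits were tested on simulated data. The rest was done in Python 3.11.15 (scipy 1.17.1, statsmodels 0.14.6, pandas 2.3.3, numpy 2.4.6; plots with matplotlib 3.10.9).

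Gene lengths, GC content, exon overlap and 3′ UTRs came from GENCODE 29 (GRCh38), matched by gene identifier for 14163 of 14185 genes. For each gene the 3′ UTR was that of 1 protein-coding transcript, by APPRIS rank and then length. The members and lists were chosen with earlier results of these data known, and so was the heptamer search, which an earlier analysis of these libraries had also made. Named partner genes were, per list, the 2 farthest from the control in the same direction with both siRNAs and the 1 farthest between the siRNAs, with every listed PIWI gene. CUL3 and ELOC were named in addition, beside ZSWIM8 and ELOB. A further marker list is not reported here.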

Additional observations from a re-analysis of the deposited data

How the results depend on the processing

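limma called 0 genes higher and 0 lower. With median-of-ratios scaling it called 1 lower gene, and DESeq2 called 10 higher and 3 lower; none is a core gene. At 1.5-fold, 629 genes were higher and 2141 lower than the control with siRNA 1, and 900 and 938 with siRNA 2. With a pseudocount of 5 these became 401 and 1129, and 476 and 495. Median-of-ratios scaling gave 1032 higher and 1638 lower genes with siRNA 1, and removal of the GC trend 850 and 1277, so the share of higher calls went from 22.7% to 38.7% and 39.96%; for siRNA 2 against siRNA 1 it went from 77.6% to 60.1% and 57.8%. A 2-fold threshold gave 96, 597, 156 and 164. A threshold 25% above or 20% below the control on the log2(CPM + 1) scale gave 2085, 4300, 2629 and 2520. Of the core genes, 1 was at least 2-fold lower with siRNA 2, and with the smaller threshold 3 were lower with each siRNA and 1 higher with siRNA 2. Median-of-ratios scaling moved the median of all genes with siRNA 1 by 0.102 and that of the core genes to −0.00099. For siRNA 2 against siRNA 1 the core median was −0.29 with that scaling and −0.27 with the GC trend removed. The medians of all genes were then −0.0017 and −0.0077. The causes were not tested.

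Mean ratios of AGO2 and AGO3 turned to 0.0015 and 0.0085 with median-of-ratios scaling. Leaving out either siRNA library turned the mean ratio of 4 core genes: the values ranged from −0.149 to 0.0498 for AGO2, −0.11 to 0.028 for AGO3, −0.12 to 0.54 for DROSHA and −0.16 to 0.053 for DGCR8. The other 6 kept their sign. Single ratios that changed sign were those of AGO3 and DICER1 with siRNA 1 (scaling), AGO3 and AGO4 with siRNA 2 (GC trend) and TNRC6A between the siRNAs (both settings). No paired analysis was possible because the control is a lone library with no number shared with the siRNA libraries in the labels.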
